A study of Mus musculus with 60 samples.

Results

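The H3K27ac peaks of mouse dorsal root ganglia after spinal dorsal column axotomy (DCA) were set against those after laminectomy alone (Lam), the matching control surgery. Only peaks over accessible chromatin were kept, defined as those overlapping by at least 1 bp an ATAC-seq peak of any of 4 surgeries. This left 27130 of 46489 DCA peaks and 39585 of 67311 Lam peaks, together 66715 of the 233427 H3K27ac peaks in the lists of all 4 surgeries. The other 2 surgeries were axotomy of the sciatic nerve (SNA) and its sham control (Sham). Mice were 6 to 8 weeks old and the L4 to L6 ganglia were taken 24 hours after surgery. Each surgery had 2 H3K27ac ChIP samples and 2 inputs, each a pool of ganglia from 10 mice, and 3 ATAC samples of 1 mouse each. A single peak list was deposited per assay and surgery, with the replicates pooled, so differences between surgeries have neither a replicate check nor a p-value. The intervals on shares are 95% Wilson intervals, which cover counting error only.

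H3K27ac, acetylation of lysine 27 of histone H3, is placed by the acetyltransferases CBP and p300 and removed by histone deacetylases. It marks the nucleosomes beside active promoters and active enhancers. Neurons of the dorsal root ganglion send 1 axon branch into the peripheral nerve, where it can regrow after injury, and another into the dorsal columns of the spinal cord, where regrowth is poor. The ganglion also holds satellite glia, Schwann cells, endothelial cells, fibroblasts and macrophages, and all of these contribute chromatin to a whole-ganglion sample. A peak can therefore be weaker because fewer cells of a type were present or because each cell carried less of the mark, and these cannot be told apart here.

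A DCA-only peak is an open DCA peak with no overlap anywhere in the Lam list, and a Lam-only peak is the reverse. Peaks were called promoter peaks within 1 kb of a protein-coding gene start and distal otherwise. Where the reference gave no start, both gene ends were counted as starts. Most open DCA peaks had a Lam counterpart, at promoters more often than at distal sites. Of 11704 open promoter peaks in DCA, 1325 were absent from Lam, 11.3% (interval 10.8 to 11.9). Of 15426 open distal DCA peaks, 3956 were absent from Lam, 25.6% (interval 25.0 to 26.3). Absence in the other direction was more frequent. Of 14960 open promoter peaks in Lam, 4796 were absent from DCA, 32.1% (interval 31.3 to 32.8), and of 24625 open distal Lam peaks 13412 were absent, 54.5% (interval 53.8 to 55.1).

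These shares were close to those between the 2 control surgeries at distal sites, and less so at promoters. When the Sham list was set against Lam in the same way, 10.1% of open promoter Sham peaks (1023 of 10172) and 25.8% of open distal Sham peaks (3919 of 15189) were absent from Lam. In return, 38.6% of open promoter Lam peaks (5777 of 14960) and 53.9% of open distal Lam peaks (13269 of 24625) were absent from Sham. The counting intervals of the distal shares overlapped between the 2 pairs of surgeries. The promoter share of Lam-only peaks was higher against Sham than against DCA. The DCA-only promoter share was above the Sham-only one (interval 9.5 to 10.7), without overlap of the intervals. Both comparisons share the Lam list. In DCA set directly against Sham, 32.4% of open promoter and 43.8% of open distal DCA peaks were absent from Sham. In return 23.9% and 43.3% of Sham peaks were absent from DCA. The background in the pile-up, the number of fragments over a base outside enrichment, was 2.109 in DCA, 2.911 in Sham and 3.078 in Lam, so that Lam stood 1.46 times above DCA and 1.06 times above Sham. With the Lam pile-ups scaled down to the DCA background the Lam-only shares were 32.0% at promoters and 54.2% at distal sites. The limit applied was the lowest −log10 p in DCA (2.21), which kept 66725 of 67311 Lam peaks. The shares could therefore hardly change. With peaks under the lowest 5% of DCA strengths also dropped, 51557 Lam peaks were left. The Lam-only shares were then 30.6% and 48.9%, and the DCA-only shares were 14.8% and 31.8%.

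**Figure D1:**
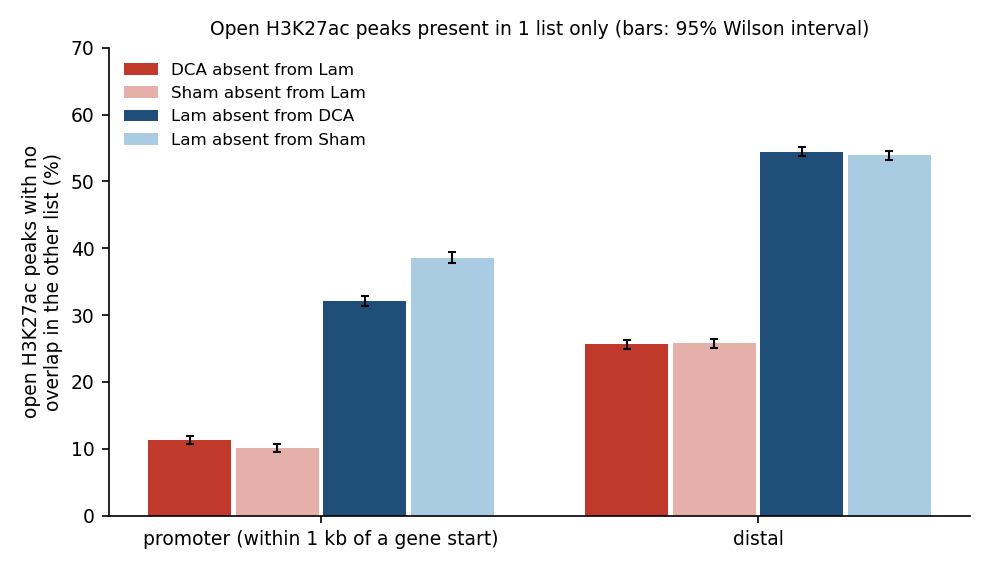
Share of open H3K27ac peaks (y axis, percent) with no overlap in the other list, at promoters and at distal sites (x axis); bars are 1 pooled list each and whiskers are 95% Wilson intervals. The DCA-only shares of 11.3% and 25.6% sit beside the Sham-only shares of 10.1% and 25.8%, and the Lam-only distal shares of 54.5% and 53.9% are the highest.

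Peaks in 1 list only were the weaker and narrower ones. The median pile-up at the summit was 14 fragments for DCA-only promoter peaks against 17 for shared ones, and 12 against 15 at distal sites. In the Lam list the medians were 18 against 24 at promoters and 16 against 21 at distal sites. Median width was 429 bp for DCA-only against 611 bp for shared promoter peaks, and 529 bp for Lam-only against 870 bp for shared distal peaks. Strength here is the −log10 p that the authors' caller gave a peak within its own list. Among DCA promoter peaks with a −log10 p below 5, 283 of 1050 were absent from Lam, and among those at 15 or more 13 of 974 (1.33%). The corresponding DCA distal shares were 42.6% and 4.04% (52 of 1288). Lam promoter peaks went from 57.9% to 10.0% (381 of 3811) and Lam distal peaks from 77.4% to 7.60% (200 of 2632). At the same range of −log10 p the Lam-only share was the higher in each of the 5 ranges, at promoters and at distal sites. The ranges do not match strength between lists, since −log10 p also depends on depth. The Lam background was 1.46 times that of DCA.

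**Figure D2:**
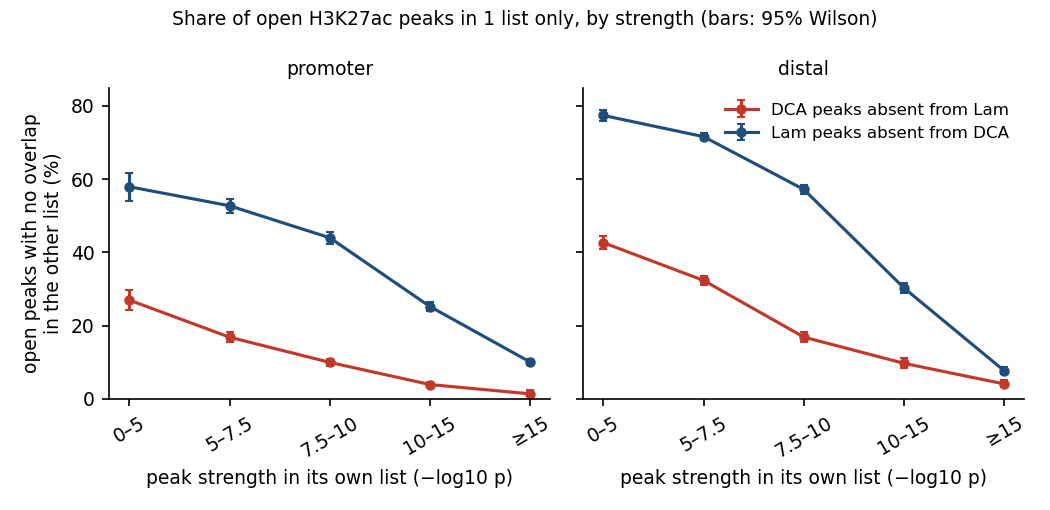
Share of open H3K27ac peaks (y axis, percent) absent from the other list, by the −log10 p of the peak in its own list (x axis, 5 ranges), with 95% Wilson intervals. Each line goes down with strength, to 1.33% of DCA and 10.0% of Lam promoter peaks in the strongest range.

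Many peaks without an overlap lay beside a peak of the other list. Of DCA-only promoter peaks, 61.4% had a Lam peak within 1 kb, and of DCA-only distal peaks 38.8%. For Lam-only peaks a DCA peak lay within 1 kb at 43.7% of promoter and 27.4% of distal ones. A promoter is commonly flanked by acetylated nucleosomes on both sides, so the peaks of one gene start can be called apart. For this reason the gain or loss at a gene was also counted over the whole start: a gene was put down as DCA only when an open DCA peak lay within 1 kb of a start and no Lam peak of any kind did.

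By that count 11553 protein-coding genes had open promoter H3K27ac in 1 or both lists. It was in both for 8982 genes, in DCA only for 449 genes (3.89%) and in Lam only for 2122 genes (18.4%). The DCA-only count was 134 when a −log10 q of 5 was asked of the DCA peaks and 833 with lists of equal size. The Lam-only count was 3632 with that limit on both lists and 1352 with it on the Lam peaks alone. Between the control surgeries 11485 genes had it, of which 380 (3.31%) had it in Sham only and 2703 (23.5%) in Lam only. Of the 449 DCA-only genes, 169 (37.6%) also had a peak in Sham and 310 (69.0%) in SNA, while 114 had none in either. Of the 2122 Lam-only genes, 971 (45.8%) had one in Sham and 1660 (78.2%) in SNA, and 333 had none in either. Genes with the mark in both lists had it in Sham in 82.5% and in SNA in 96.3% of cases. The strongest start peak of the DCA-only genes had a median −log10 p of 6.43, and 45 of the 449 reached 10. For Lam-only genes the median was 8.81, and 775 of 2122 reached 10.

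The promoter sequences of 4 genes with a start peak in 1 list only are shown. Counted over the whole start, their difference between DCA and Lam ran the same way between DCA and Sham. At Arhgap35 the Sham start peak did not overlap the strongest Lam peak. They were chosen after their values were seen, as the strongest of their kind with an entry in the RefSeq promoter table near the peak. Each is the 250 bases before the gene start, from RefSeq on GRCm38.p6, written 5′ to 3′ on the strand of the gene. Capitals mark matches on either strand to the letters of 6 motifs. The injury-induced factor AP-1 was searched as TGANTCA. The element of CREB was searched as TGACGTCA and is called CRE. The GC box of SP factors was searched as GGGCGG. A longer form of the ETS factor site was searched as CCGGAA, so shorter ETS sites are not counted. The remaining motifs were the CCAAT box, searched by those letters, and the TATA box, searched as TATAAA. No motif contains the letters of another. Edem1 lies at chr6:108828391-108828640 on the plus strand and Poc5 at chr13:96388044-96388293 on the plus strand, both DCA only. Arhgap35 lies at chr7:16614994-16615243 on the minus strand and Nup205 at chr6:35177366-35177615 on the plus strand, both Lam only.
Edem1: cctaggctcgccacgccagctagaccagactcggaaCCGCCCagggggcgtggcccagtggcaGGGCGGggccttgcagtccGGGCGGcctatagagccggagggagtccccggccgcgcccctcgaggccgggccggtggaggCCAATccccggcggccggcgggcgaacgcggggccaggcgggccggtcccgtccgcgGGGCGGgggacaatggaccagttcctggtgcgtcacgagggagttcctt
Poc5: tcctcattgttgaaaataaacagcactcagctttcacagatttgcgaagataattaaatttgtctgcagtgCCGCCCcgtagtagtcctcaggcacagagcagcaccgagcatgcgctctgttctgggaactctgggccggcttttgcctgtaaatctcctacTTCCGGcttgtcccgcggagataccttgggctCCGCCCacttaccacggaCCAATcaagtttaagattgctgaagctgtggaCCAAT
Arhgap35: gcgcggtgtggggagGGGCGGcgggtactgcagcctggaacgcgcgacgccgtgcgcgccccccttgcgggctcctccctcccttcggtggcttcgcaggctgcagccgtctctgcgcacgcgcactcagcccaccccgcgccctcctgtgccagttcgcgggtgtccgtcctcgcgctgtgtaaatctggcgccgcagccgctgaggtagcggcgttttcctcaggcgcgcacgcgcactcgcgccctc
Nup205: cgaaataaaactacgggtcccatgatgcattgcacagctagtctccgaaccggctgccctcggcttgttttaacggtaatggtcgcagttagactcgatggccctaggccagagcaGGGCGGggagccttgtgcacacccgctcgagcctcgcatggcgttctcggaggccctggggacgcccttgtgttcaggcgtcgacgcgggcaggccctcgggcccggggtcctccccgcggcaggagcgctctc
The Edem1 stretch is 76.0% G and C with 30 CpG pairs and holds 4 GC box matches and 1 CCAAT box match. The Poc5 stretch, at 50.8% G and C with 11 CpG pairs, holds 2 GC box, 2 CCAAT box and 1 ETS match. In Arhgap35 (73.6%, 36 CpG pairs) and Nup205 (65.2%, 24 CpG pairs) the only match is 1 GC box each. None of the 4 stretches holds the AP-1, CRE or TATA box letters.

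Over the promoters in the table, those of DCA-only and Lam-only genes were alike in most of the letters searched, and nearer to promoters with the mark in both lists than to unmarked ones for AP-1, CRE, GC box, ETS and TATA box. The GC box letters were in 54.2% of 450 DCA-only promoters (interval 49.6 to 58.8), 57.5% of 2047 Lam-only promoters (55.4 to 59.7) and 58.5% of 9569 promoters with the mark in both. They were in 22.2% of 9197 promoters with it in neither list and in 42.6% of all 21263 promoters. The AP-1 letters were in 4.22% of DCA-only, 4.45% of Lam-only, 4.16% of shared and 8.65% of unmarked promoters, against 6.13% of all. The CRE letters were in 2.89%, 2.44%, 2.60% and 1.05% in the same order, against 1.92% of all. ETS letters were in 18.7% of DCA-only, 19.1% of Lam-only (interval 17.5 to 20.9) and 22.2% of shared promoters (interval 21.4 to 23.1), beside 6.35% of unmarked ones (15.0% of all). CCAAT was in 40.2% of DCA-only (interval 35.8 to 44.8), 36.1% of Lam-only and 33.7% of shared promoters (interval 32.8 to 34.7), beside 36.7% of unmarked ones (35.4% of all). TATAAA was in 6.22% of DCA-only, 6.50% of Lam-only, 5.95% of shared and 18.95% of unmarked promoters (11.6% of all). Median G and C content was 58.4% in DCA-only, 59.2% in Lam-only, 60.4% in shared and 48.4% in unmarked promoters. These are letter matches in a fixed window and not bound sites.

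Among the genes with a start peak in DCA but not in Lam or Sham, Edem1, which helps to send misfolded glycoproteins of the endoplasmic reticulum to degradation, had a DCA peak of 21 fragments at its summit (fold 7.08 over local background, −log10 p 14.8). SNA had 2 peaks at this start, the stronger with a −log10 p of 7.97. Poc5, a centriole protein gene, had 2 DCA peaks, the stronger of 20 fragments (fold 6.54, −log10 p 13.4), and 1 SNA peak with a −log10 p of 13.9. Both starts also carried H3K9ac and ATAC peaks in the Lam list and the DCA list, so the other 2 assays had a peak at these starts in both lists. Cdc25a, a phosphatase that drives cell cycle entry, had a DCA peak of 19 fragments (fold 6.15, −log10 p 12.3) and none in Lam, Sham or SNA. Its start had an H3K9ac peak in DCA (−log10 p 12.7), Sham (4.51) and SNA (4.70) but not in Lam.

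Of the 6 strongest DCA-only promoter peaks, 4 were also found in Sham. At Slc38a9, which encodes a lysosomal amino acid sensor of the mTORC1 pathway, the DCA peak had 27 fragments (fold 9.01, −log10 p 21.3) and the nearest Lam peak was 12855 bp away. Sham (29 fragments, −log10 p 17.7) and SNA (−log10 p 20.6) both had it, so the Lam list alone lacked it. Ikzf3, a lymphocyte transcription factor gene, had 27 DCA and 28 Sham fragments at a position counted as its start. It had no H3K9ac peak there in any surgery, and the DCA peak overlapped an ATAC peak in Sham only (−log10 p 5.18). The H3K27ac peak began at chr11:98464363, but the DCA ATAC peak counted at an Ikzf3 start began at chr11:98545667. The H3K27ac peak may therefore lie at the far end of the gene and not at its promoter. L3mbtl3, a reader of histone methylation, had 25 DCA fragments with a Lam peak 832 bp off. At Txnl1, Fut10, Dipk2a and Golph3l the DCA-only peak had 26, 24, 22 and 22 fragments and a Lam peak lay 203, 133, 1365 and 195 bp away. The last 3 of these peaks were absent from Sham as well.

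Lam-only promoter peaks reached higher pile-ups, in a list whose background was 1.46 times that of DCA. Their median fold was 4.24, against 4.05 for DCA-only promoter peaks. At Amacr, which encodes a racemase for branched-chain fatty acids, the Lam peak spanned 1499 bp with 48 fragments at its summit (fold 11.6, −log10 p 39.2), and the nearest DCA peak was 82353 bp away. Sham had 2 peaks there, the stronger of 18 fragments (−log10 p 9.46), and SNA 1 peak (−log10 p 18.4). Slc16a7, a monocarboxylate transporter that carries lactate and pyruvate into neurons, had a Lam peak of 2055 bp and 41 fragments (fold 10.3, −log10 p 31.9). Sham had 23 fragments there and the nearest DCA peak was 14956 bp away. At both genes 3 of the 4 H3K27ac lists held the peak and DCA was the exception.

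At Arhgap35, which encodes a GTPase-activating protein with a part in axon guidance, the Lam summit had 46 fragments (fold 10.9, −log10 p 36.4). A Sham peak of 16 fragments lay elsewhere within 1 kb of a start, and the nearest DCA peak was 1306 bp from the Lam peak. Nup205, a nuclear pore scaffold gene, had 40 Lam and 23 Sham fragments and no DCA peak. Ptpru, a receptor tyrosine phosphatase gene, had 40 Lam and 25 Sham fragments and no DCA peak. At Rnf130, a ubiquitin ligase gene, the Lam summit had 46 fragments, the Sham list had no start peak, and the nearest DCA peak was 45534 bp away. At Rabgap1, Cbx7 and Kmt2c the Lam-only peaks had 49, 43 and 43 fragments, but a DCA peak lay 232, 137 and 120 bp away. These 3 differ in the place of the called peaks around the start and not in whether the start region had one.

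H3K9ac, another acetyl mark of active promoters, was listed in DCA at most promoters where H3K27ac was in Lam only. The DCA H3K9ac list had an overlap at 90.3% of Lam-only promoter peaks and the Lam H3K9ac list at 64.4%. At DCA-only promoter peaks the shares were 83.3% and 52.6%. H3K9ac was thus found more often in DCA than in Lam on both sides of the H3K27ac comparison. The DCA H3K9ac list overlapped 97.9% of shared Lam promoter peaks and the Lam H3K9ac list 86.2%. At Nup205 the H3K9ac −log10 p was 32.0 in DCA and 12.3 in Lam, each within its own list. At Arhgap35 and Ptpru H3K9ac peaks were in the DCA list only, with a −log10 p of 15.5 and 8.66, although their H3K27ac peak was in Lam and not in DCA. At distal sites the DCA and Lam H3K9ac lists overlapped 51.7% and 22.8% of DCA-only peaks and 65.0% and 33.1% of Lam-only peaks.

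The DCA and Lam ATAC lists covered similar shares of each kind of site. All these peaks had been kept for overlapping an ATAC peak of at least 1 surgery. The ATAC shares are therefore set in part by that selection and are not an independent comparison. The DCA and Lam ATAC lists overlapped 86.9% and 85.3% of DCA-only promoter peaks, and 90.7% and 89.7% of Lam-only promoter peaks. At distal sites they overlapped 51.2% and 47.9% of DCA-only and 52.8% and 50.6% of Lam-only peaks. The SNA H3K27ac list, the longer at 75824 peaks against 43803 in Sham, held 64.8% of DCA-only and 71.8% of Lam-only promoter peaks. It held 37.8% and 52.9% of the distal ones. The Sham list held 32.2% and 37.1% at promoters and 24.2% and 26.6% at distal sites. So most peaks of either kind were missing from the other control as well.

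**Figure D3:**
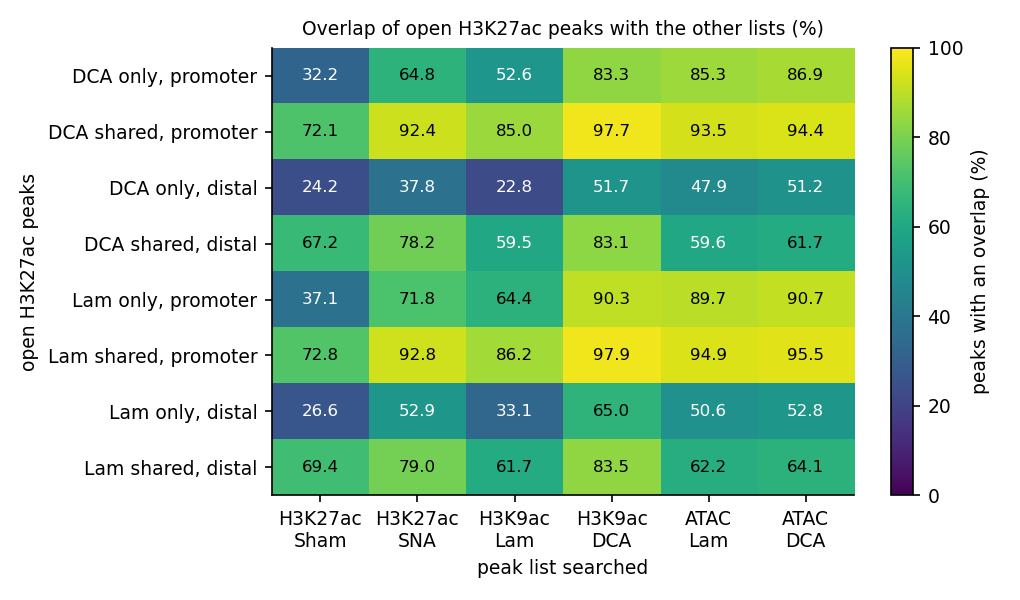
Percent of open H3K27ac peaks (rows: DCA-only, Lam-only and shared peaks, promoter and distal) that overlap each of 6 other peak lists (columns); colour and printed number give the same percent. The DCA H3K9ac column is above the Lam H3K9ac column in every row shown, and the paired ATAC columns differ by 3.36 points or less. All rows were limited beforehand to peaks over an ATAC peak of any surgery.

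At distal sites the strongest DCA-only peaks were also Sham peaks with little H3K9ac. The 6 strongest lay nearest to the starts of Ttc30a1 (inside Pde11a), Zcchc14, Rev1 (inside Aff3), Snrk, Get4 (inside Adap1) and Polr1b (inside Ttl). The nearest gene gives the position only and not a target. Their summits had between 29 and 37 DCA fragments. The top peak, chr2:76033124-76033571 in Pde11a, a cyclic nucleotide phosphodiesterase gene, had 37 fragments (fold 12.2, −log10 p 33.3). All 6 were in the Sham list, none was in SNA, and none overlapped an H3K9ac peak of any surgery. The peak nearest to Rev1 overlapped an ATAC peak in Lam only (−log10 p 2.72), and the others overlapped a DCA ATAC peak. Over the 957 DCA-only distal peaks that Sham held, 58.0% overlapped a DCA H3K9ac peak, but of the 100 strongest only 7 did, and 5 were in SNA. Of the 100 strongest among the 2999 that Sham lacked, 53 had DCA H3K9ac and 39 were in SNA. A DCA ATAC peak lay over 37 of the 100 strongest that Sham held and 53 of the 100 that it lacked. Strong DCA-only distal peaks thus came as a group with Sham peaks and without H3K9ac, and a group absent from Sham in which about as many had H3K9ac as lacked it.

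The strongest distal DCA peaks absent from both controls were weaker. The first lay between genes, 12788 bp from the start of Glrp1, with 25 fragments (fold 8.09, −log10 p 18.6), the nearest Lam peak 84683 bp away and no H3K9ac peak. It overlapped an ATAC peak in Sham only (−log10 p 4.12), as did the next peak (3.79). Inside Sox6, a transcription factor gene, a peak of 22 fragments overlapped DCA H3K9ac (−log10 p 5.62) and an SNA H3K27ac peak (−log10 p 9.69), with a Lam peak 646 bp away. Inside Tead1, which encodes the DNA-binding partner of the Hippo pathway's YAP, a peak of 867 bp and 20 fragments overlapped DCA H3K9ac (−log10 p 11.6) and SNA H3K27ac (−log10 p 12.1). A Lam peak lay 762 bp from it. A peak nearest to Prl5a1 (20 fragments, 277232 bp from the start) had a Lam peak 369 bp away. This peak and the Tead1 peak overlapped a DCA ATAC peak (−log10 p 5.42 and 6.87).

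Lam-only distal peaks were more numerous than DCA-only ones, with a median −log10 p of 6.74 against 5.88, in a list with 1.46 times the DCA background. Their median fold over local background was not higher, at 3.77 against 3.86. The strongest was inside Nsd1, a histone H3 lysine 36 methyltransferase gene, 2004 bp from the start, with 64 fragments in Lam (fold 15.9, −log10 p 60.5). A DCA peak lay 387 bp away, and the peak overlapped DCA H3K9ac with a −log10 p of 21.0. Nsd1 also had 2 Lam peaks within 1 kb of its start, the stronger of 51 fragments, and no DCA peak within that window. This stronger Lam peak was not itself Lam only, since a DCA peak beyond the window overlapped it. Inside Rai1, a transcriptional regulator gene, the Lam peak had 55 fragments (fold 11.1, −log10 p 42.6), Sham had it too (−log10 p 30.6), and the nearest DCA peak was 24170 bp away. Inside Nmnat2, which encodes an axon survival factor that makes NAD, a Lam peak of 1386 bp and 45 fragments (−log10 p 31.5) was also in Sham (9.81) and SNA (7.88). A DCA peak lay 1421 bp from it. A peak of 44 fragments inside Slx1b, 1982 bp from the start of Sult1a1, was in Sham (−log10 p 21.4) and had no H3K9ac in any list. A peak inside Nlgn2, a synaptic adhesion gene, had 39 fragments with a DCA peak 304 bp away. A peak of 2016 bp and 41 fragments lay 25521 bp from the start of Cxxc5, absent from Sham but present in SNA.

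Peak numbers were also counted over whole genes with 10 kb on either side. Of 7666 genes with an open distal peak in DCA or Lam, 1373 (17.9%) had more in DCA and 4553 (59.4%) fewer, with a median difference of -1. The largest deficits were in long genes, with a median length of 379 kb for the 5 genes against 28.7 kb for all 7666. Ranking by number of peaks favours long genes, so this length is set in part by the rule. The 5 genes with the largest excess had a median of 40.6 kb. Cux1, a homeobox gene, had 41 open distal peaks in Lam and 17 in DCA, beside 15 in Sham and 36 in SNA. In the same order Bcas3 had 34, 11, 13 and 42, and Msi2, an RNA-binding protein gene, 52, 30, 22 and 53. Asap1, an Arf GTPase-activating protein gene, had 31, 11, 14 and 39 and was the only one of the 5 with a start peak in Lam only. Dst, which encodes a cytoskeletal linker needed by sensory neurons, had 35, 15, 19 and 40. In these 5 genes DCA was within 8 peaks of Sham and below both Lam and SNA. The whole lists also differed in size, with 43803 peaks in Sham, 46489 in DCA, 67311 in Lam and 75824 in SNA. Ralgps1, which went from 34 in Lam to 14 in DCA, tied with Asap1 and Dst and was left out by alphabetical order.

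The gains over genes were smaller, and few of them came from places without a Lam peak. Capg, an actin filament capping gene, had 6 peaks in Lam and 13 in DCA, beside 7 in Sham and 9 in SNA, but 1 of the 13 was DCA only. Bicra, a subunit gene of a SWI/SNF complex, had 19, 25, 10 and 28 in the same order, of which 3 DCA peaks had no overlap in Lam. Ippk, an inositol phosphate kinase gene, had 5, 11, 8 and 11 with 2 such peaks. Chst3, a chondroitin sulfotransferase gene, had 10, 15, 5 and 11 with 1. Fscn1, the actin-bundling protein fascin, had 5, 10, 6 and 4 with 0. In these 5 genes most of the DCA peaks overlapped a Lam peak, so the higher number was not a matter of separate new places. Klf7, tied with Chst3 and Fscn1, had 9 in Lam and 14 in DCA, and 6 of the 14 had no Lam overlap.

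**Figure D4:**
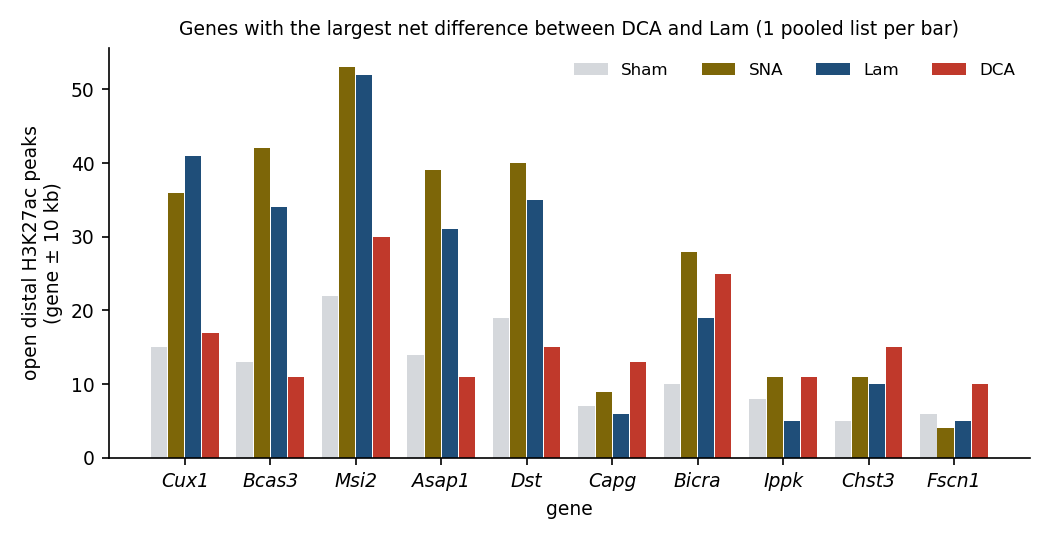
Number of open distal H3K27ac peaks (y axis) in each gene and 10 kb on either side (x axis), 1 bar per surgery and no error since each list is pooled. In the 5 genes on the left DCA (11 to 30 peaks) lies below Lam (31 to 52), and in the 5 on the right DCA (10 to 25) lies above Lam (5 to 19).

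In the gene lists that follow, fragments given for 2 lists are those of the strongest peak within 1 kb of a start in each, and these need not overlap. Genes known for axon regeneration were mostly in the same state after both surgeries. Of 40 regeneration-associated genes, 18 had start H3K27ac in both lists, among them Atf3, Jun, Stat3, Smad1, Klf6 and Myc, 18 in neither, 1 in DCA only and 3 in Lam only. The last 2 counts are 1 and 3 of 22 genes with the mark, beside 3.89% and 18.4% of all such genes. The DCA-only gene was L1cam, a neuronal adhesion gene, with a weak peak of 10 fragments (fold 3.54, −log10 p 4.87). The SNA peak at this start (−log10 p 4.46) did not overlap it, and Sham had none. The Lam-only genes were Creb1, Gadd45a and Hspb1. At Creb1, the cAMP-responsive activator, the strongest of 3 Lam peaks had 36 fragments (fold 8.72, −log10 p 25.6). DCA and Sham had no peak there and SNA had 3. At Gadd45a, a stress response gene, Lam had 22 and Sham 19 fragments, and at Hspb1, a small heat shock protein gene, Lam had 18 and Sham 14. Sprr1a, Sox11 and Gal, known to be induced by peripheral axotomy, had no start peak in any of the 4 H3K27ac lists. Gap43, a growth cone gene induced likewise, had a start peak in DCA and in no other list, but it overlapped no ATAC peak and so was not counted. Distal peaks of the list numbered 64 in Lam, 53 in DCA, 41 in Sham and 84 in SNA, and 7 of 21 genes with such peaks had more in DCA and 9 fewer. The median difference was 0, against -1 over all genes, of which 17.9% had more and 59.4% fewer. Klf7, a transcription factor known to promote axon growth, had the largest excess (9 to 14, with 6 in Sham and 14 in SNA) and Fgf2 the largest deficit (8 to 3).

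The immediate early and AP-1 genes, which neurons switch on within minutes of activity or injury, had start H3K27ac in both lists for 19 of 20 members. The exception, Npas4, had it in neither. Their distal peaks numbered 47 in Lam, 34 in DCA, 36 in Sham and 37 in SNA. Jund had 5 in Lam and 0 in DCA, Egr1 3 and 0, Junb 5 and 2, and Fos 3 and 1. Btg2, Egr3, Fosl2, Ier3 and Nr4a3 had 1 more each in DCA. In the list as a whole, 7 of 17 genes had fewer and 5 more, with a median difference of 0. Over all genes with a distal peak 59.4% had fewer and 17.9% more, and the median was -1. No gene of this list had start H3K27ac in 1 list only, beside 3.89% in DCA only and 18.4% in Lam only over all genes with the mark.

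The labelled tissue was checked against its own markers, and many neuronal markers had no open start peak. Of 20 sensory neuron genes, 12 had none in either list, including Avil, Isl1, Pou4f1 and Scn10a, which define these neurons. Scn10a had a DCA start peak that overlapped no ATAC peak, and Pou4f1 had a start peak in Sham. Start peaks were in both lists for 5, in DCA only for Scn9a and in Lam only for Calca and Prph. The last 2 groups are 1 and 2 of 8 genes with the mark, beside 3.89% and 18.4% of all such genes. Scn9a, which encodes the sodium channel Nav1.7 of pain-sensing neurons, had a DCA peak of 12 fragments (fold 3.11, −log10 p 4.54), the only 1 of the 4 H3K27ac lists with a peak there and with no H3K9ac peak in any list. Calca, the CGRP gene, had 14 Lam fragments (−log10 p 6.04) and a DCA H3K9ac peak (−log10 p 8.10). Prph, the intermediate filament peripherin of small neurons, had 17 Lam fragments (−log10 p 8.28) and H3K27ac in SNA. All 3 peaks were weak. Distal peaks of the list went from 29 in Lam to 12 in DCA, with 13 in Sham and 31 in SNA. The mechanosensitive channel gene Piezo2 (12 to 4) and the neurotrophin receptor gene Ntrk2 (9 to 3) made up most of the difference. Of 7 genes with such peaks 4 had fewer in DCA and 2 more, beside 59.4% and 17.9% of all genes.

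Of 20 voltage-gated channel genes, 13 had start H3K27ac in neither list and 2 in both. It was in DCA only at 2 genes, among them Scn9a, and in Lam only at 3, among them Cacna1c and Kcnd3. These are 2 and 3 of 7 genes with the mark, beside 3.89% and 18.4% of all such genes. Cacna1c, the L-type calcium channel Cav1.2, had 18 Lam fragments (fold 4.66, −log10 p 9.07) and no Sham peak, and its distal peaks numbered 14 in Lam and 5 in DCA. Kcnd3, an A-type potassium channel gene, had 17 Lam and 15 Sham fragments. Both of these Lam-only starts had an H3K9ac peak in DCA. Distal peaks of the list were 36 in Lam, 17 in DCA, 20 in Sham and 33 in SNA.

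Satellite glia and Schwann cell genes had the mark in both lists for 12 of 20 genes and in Lam only for 4, namely Fabp7, Kcnj10, Mbp and Prx (25.0% of the 16 with the mark, beside 18.4% of all genes). Fabp7, a fatty acid-binding protein of satellite glia, had 19 Lam and 17 Sham fragments. Kcnj10, the glial potassium channel Kir4.1, had 14 Lam fragments and none in Sham. The myelin gene Mbp had 18 Lam and 16 Sham fragments, and Prx, the periaxin gene of myelinating Schwann cells, 17 and 19. All 4 starts had an H3K9ac peak in DCA. Distal peaks went from 67 in Lam to 38 in DCA, with 44 in Sham and 70 in SNA. Of 14 genes with such peaks 12 had fewer in DCA and 1, Erbb3, more, with a median difference of -1.5. Over all genes 59.4% had fewer and 17.9% more, with a median of -1. Mbp went from 18 to 12, Pmp22 from 8 to 2, and Sox2 and Foxd3 from 3 to 0 each. The mark's share in glia and in neurons was not separated in these samples.

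Endothelial and mural genes were more often Lam only than in both. Of 15 genes, 9 had a start peak in 1 or both lists, 3 in both and 6 in Lam only, beside 18.4% of all genes with the mark. The 6 were Acta2, Eng, Erg, Esam, Kdr and Vwf. Their strongest Lam peaks had 14 to 23 fragments, below the median of 24 for shared Lam promoter peaks. Open Lam promoter peaks of any gene were often absent from DCA at low strength. The share was 52.7% at a −log10 p of 5 to 7.5, 44.0% at 7.5 to 10 and 25.2% at 10 to 15. The 18.4% is not matched for strength. Eng, a TGF-beta co-receptor of vessels, had 23 Lam fragments (fold 5.89, −log10 p 13.4) and 15 in Sham. Erg, a transcription factor of endothelial cells, had 22 Lam fragments (fold 5.64, −log10 p 12.5) and no peak in Sham or SNA. Kdr, the VEGF receptor gene, had 18 Lam and 15 Sham fragments. Esam, an adhesion gene, had 18, and Acta2, the smooth muscle actin, and Vwf, the von Willebrand factor, 17 and 14, all 3 without Sham. At 3 of the 6 genes (Acta2, Eng and Kdr) DCA had an H3K9ac peak. Distal peaks of the list went from 30 to 19, with 24 in Sham and 38 in SNA, and Eng went from 5 to 1. The 2 strongest of these promoters with a table entry are shown as examples from vessel cells. Eng lies at chr2:32646345-32646594 on the plus strand and Erg at chr16:95586594-95586843 on the minus strand, with capitals as before.
Eng: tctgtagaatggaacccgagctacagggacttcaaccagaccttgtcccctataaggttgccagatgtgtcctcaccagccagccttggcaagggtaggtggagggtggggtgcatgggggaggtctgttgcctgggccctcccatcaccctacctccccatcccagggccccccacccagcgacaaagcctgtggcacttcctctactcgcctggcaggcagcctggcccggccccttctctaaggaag
Erg: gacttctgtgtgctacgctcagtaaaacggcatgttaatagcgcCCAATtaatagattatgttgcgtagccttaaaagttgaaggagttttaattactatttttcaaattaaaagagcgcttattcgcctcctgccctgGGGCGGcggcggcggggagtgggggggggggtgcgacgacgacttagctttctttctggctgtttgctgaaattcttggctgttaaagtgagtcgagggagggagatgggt
The Eng stretch (62.4% G and C, 4 CpG pairs) holds none of the letters searched for the 6 motifs, which leave out shorter ETS sites. The Erg stretch (48.8%, 14 CpG pairs) holds 1 GC box and 1 CCAAT box.

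Macrophage genes were nearly bare: 18 of 20 had no open start peak, 1 (Cd14) had it in both lists and Spi1, the myeloid transcription factor PU.1, in Lam only (13 fragments, −log10 p 5.10), with none in Sham. Of 12 fibroblast and matrix genes 8 had no open start peak, 2 were in both and 2, Col1a1 and Postn, in Lam only. Col1a1, the type I collagen gene, had 20 Lam and 21 Sham fragments and its distal peaks went from 7 to 3. Postn, the matrix protein periostin, had 22 Lam and 20 Sham fragments. Both had H3K9ac in DCA. Skeletal muscle genes, a tissue next to the ganglion, were marked at 1 of 8 starts, in both lists. Of 8 genes of spinal cord glia 2 were Lam only, among them Aldh1l1 (19 fragments), and 6 had no open start peak. The Lam-only genes were 1 of 2 macrophage, 2 of 4 fibroblast and matrix and 2 of 2 spinal cord glia genes with the mark. These counts are small, and over all such genes the Lam-only share was 18.4%.

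Genes of axon guidance had start peaks in both lists for 9 of 20 and in neither for 10. Sema3e, a repellent guidance cue, was Lam only with 15 fragments, and Sham had 22. It was 1 of 10 genes with the mark, beside 18.4% of all such genes. Distal peaks numbered 73 in Lam, 53 in DCA, 45 in Sham and 103 in SNA. The semaphorin gene Sema6d went from 19 to 10, Plxnd1, the receptor of Sema3e, from 13 to 5, and the netrin gene Ntn1 from 5 to 0, while Sema4d went from 6 to 9. In total 7 of 13 genes with distal peaks had fewer and 3 more, beside 59.4% and 17.9% of all genes. The median difference was -1, the same as over all genes.

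Enzymes and readers of histone acetylation, which write, erase and bind this mark, had it at their own starts in both lists for 17 of 20 genes. Only Hdac6, a cytoplasmic deacetylase, was Lam only (1 of 18 marked genes, beside 18.4% of all), with 14 Lam fragments and none in Sham. Their distal peaks went from 51 in Lam to 20 in DCA, with 24 in Sham and 38 in SNA, and 9 of 12 genes had fewer against 1 with more, beside 59.4% and 17.9% of all genes. The class IIa deacetylase gene Hdac4 alone went from 22 to 6, of which 17 of the 22 Lam peaks were Lam only, with 8 in Sham and 15 in SNA. Kat6b, an acetyltransferase gene, went from 7 to 1.

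Housekeeping genes also differed between the lists. All 20 cytosolic ribosomal protein genes had start H3K27ac in Lam and 14 had it in DCA as well. The 6 Lam-only genes included Rpl4, Rpl5, Rpl8, Rps4x and Rps9, with summits of 24, 24, 30, 19 and 24 Lam fragments. Of these 5, Rpl5 had no Sham peak and the other 4 had one. All 5 had an H3K9ac peak in DCA, with a −log10 p between 8.87 and 26.2. Of 20 genes of energy metabolism 17 were in both and 1, the ATP synthase gene Atp5a1, in Lam only (22 Lam and 18 Sham fragments, with a DCA H3K9ac peak of −log10 p 32.3). Ribosomal genes are active in every cell type. Their Lam-only share was 30.0%, beside 18.4% of all genes with the mark and 25.0% of satellite glia and Schwann cell genes. For the energy metabolism genes it was 5.56%.

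**Figure D5:**
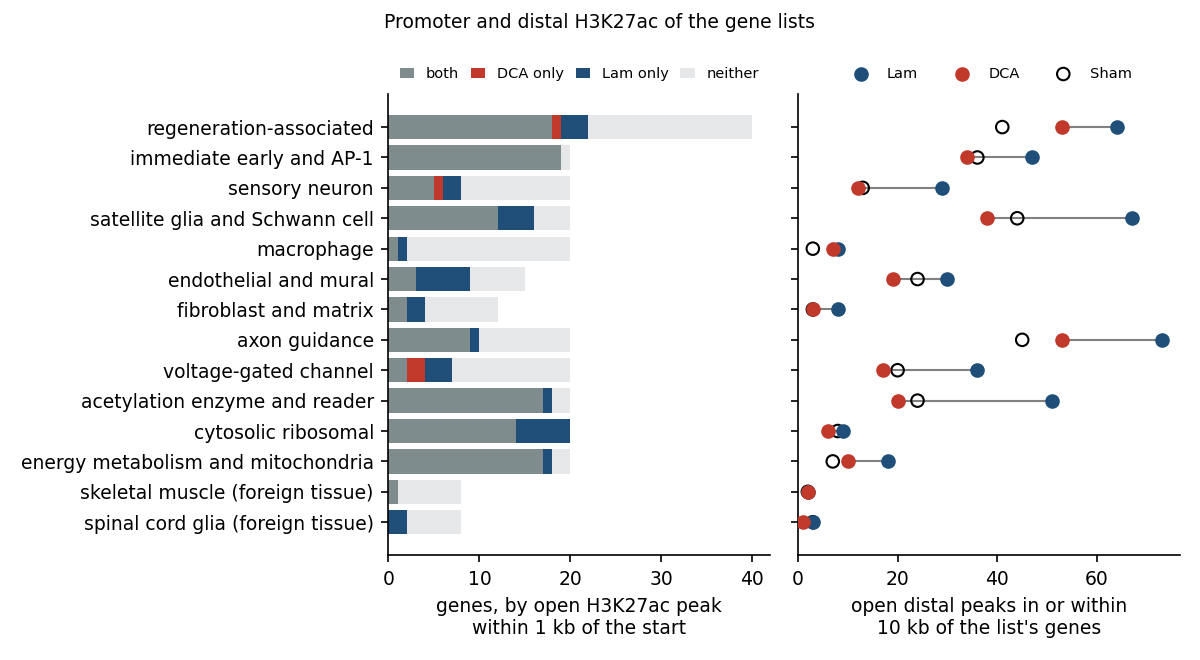
For each gene list, the left panel gives the number of genes by where an open H3K27ac peak lies within 1 kb of the start (both lists, DCA only, Lam only, neither), and the right panel the open distal peaks in or within 10 kb of its genes for Lam, DCA and Sham. DCA has fewer distal peaks than Lam in 13 of 14 lists, and DCA-only starts appear in 3 lists.

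Across chromosomes the share of open peaks in 1 list only was lowest on chromosome 19 and highest on the X for both lists, leaving out the Y, where Lam had 1 open peak. It ran from 16.1% to 35.0% of DCA peaks and from 43.1% to 53.6% of Lam peaks. Peaks over ATAC were a smaller part of the strongest peaks in some lists than in others: of the 5000 strongest H3K27ac peaks, 38.7% were open in Sham, 48.2% in DCA, 68.9% in Lam and 94.1% in SNA. The limit to open chromatin therefore removed more of the strong DCA and Sham peaks than of the strong Lam peaks. Over whole lists the open share was 58.4% in DCA and 58.8% in Lam.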

How the data were processed

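Per the labels' protocols, chromatin of lumbar dorsal root ganglia was precipitated with an H3K27ac antibody and sequenced. Per the series' design text, the authors pooled the replicates of a condition into 1 peak list. The build is mm10 per the submitters' processing notes. The aligner and peak caller are not given in the sources used here. The deposited narrow lists give a linear fold ratio over local background, a −log10 p, a −log10 q and a display score per peak. These are the authors' own values and were used to describe, rank or filter peaks within a list. The highest rank in the peak names exceeds the number of lines (130902 against 46489 in DCA), so each list is part of a longer one.

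Depth is not stated in the files. The pile-up at a summit and the local background were recovered from the deposited fold, taken as (pile-up + 1)/(background + 1), and the −log10 p as a Poisson tail. All peaks of the Sham, Lam and DCA lists matched within 0.003. The SNA H3K27ac list, the H3K9ac and the ATAC lists are given by −log10 p only. Lists were compared by overlaps of at least 1 bp with Python 3.11.15, NumPy 2.4.6, pandas 2.3.3 and SciPy 1.17.1, and the overlap and recovery code was tested on simulated data.

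Gene starts came from RefSeq tables of GRCm38.p6 with 21887 protein-coding genes. For 17492 genes (79.9%) a promoter entry gave the start, and for the other 4395 both gene ends were used. Named peaks are, per class, the 6 strongest by −log10 p and the 4 strongest for which Sham was like Lam (absent from Sham for DCA-only, present in Sham for Lam-only peaks), and named genes the 5 with the largest net distal excess and the 5 with the largest deficit. List genes named are those with a start peak in 1 list only and those with the largest distal differences. Genes ranked by their start peak, including those whose promoters are printed, were chosen after their values were seen. The members, gene lists and comparisons were chosen with earlier results of these data known. H3K27me3 lists were not used here. Peak sequences are not printed because no genome of the build was used. No test between surgeries was made, since each list pools its replicates. Of 12 alternatives 2 were added after seeing the data. Some genes that the rules select are not reported here.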

Additional observations from a re-analysis of the deposited data

How the results depend on the processing

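No paired analysis was possible because each deposited list pools the replicates of a surgery, and for the same reason no replicate could be left out. In the values that follow, the order is DCA promoter, DCA distal, Lam promoter and Lam distal peaks absent from the other list, which were 11.3%, 25.6%, 32.1% and 54.5%. A reciprocal overlap of 50% gave 43.3%, 64.1%, 55.2% and 77.4% and no gene counts, since it has no meaning for a window around a start. Counting peaks within 1 kb as shared gave 4.37%, 15.7%, 18.03% and 39.5%. Requiring a −log10 q of 5 or more of either list gave 15.0%, 23.0%, 49.6% and 62.4% and 3632 Lam-only genes in place of 2122, and the same limit in the queried list alone gave 5.95%, 11.7%, 24.5% and 35.9%, with 134 DCA-only genes in place of 449 and 1352 Lam-only genes. Cutting the Lam list to the size of the DCA list gave 17.5%, 36.0%, 27.8% and 44.1%, with 833 DCA-only genes. Without the ATAC limit the shares were 13.1%, 33.6%, 33.9% and 59.6%, and with a promoter window of 5 kb 13.1%, 26.4%, 35.4% and 55.3%. ATAC peaks of DCA and Lam alone moved the distal shares to 23.6% (DCA) and 52.0% (Lam). Limiting the other list to ATAC as well gave 27.7% at distal DCA, 33.3% at promoter Lam and 58.3% at distal Lam peaks. Scaling the Lam pile-ups to the DCA background without further limits left all 6 results within their error. It kept 66725 of 67311 Lam peaks and so could hardly move them. With peaks under the lowest 5% of DCA strengths dropped as well, an alternative chosen after seeing the data, the shares were 14.8%, 31.8%, 30.6% and 48.9%. With that applied to the queried list alone, also chosen after seeing the data, 24.8% of distal DCA, 29.1% of promoter Lam and 47.1% of distal Lam peaks were absent. Of 70 values under alternatives, 26 stayed within their counting interval (gene counts within 1.5 times) and 44 moved. The Lam-only share was above the DCA-only share, and the distal above the promoter share, in 13 of 13 settings including the main one. The cause of these shifts was not tested.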
